A study of Rattus norvegicus with 4 samples.

Results

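The genes described here code for the proteins that copy DNA and for a few that mend it during copying. Of 54 genes listed by symbol, 51 had a probe set annotated with that symbol alone, of 14217 genes with such a probe set on the array, and each was represented by its probe set with the highest mean log2 signal. All 51 passed the filter on dim probe sets. Cdc6 and Gins2 had no probe set under that single symbol, and Rrm2, a subunit of ribonucleotide reductase, had only 2 probe sets that other symbols share, so no value is given for these genes.

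The cells were RT4D6, a single rat line from a Schwannoma, a tumour of the glia that wrap peripheral nerve fibres. They had received either the wild type siRNA, which is directed at the messenger of the transcription factor Sox10, or a mutant siRNA that served as control, and RNA was taken at 48 h. There were 2 one-colour Affymetrix Rat 230 2.0 arrays for each siRNA, and the submitters describe paired sets of cells, numbered here as replicate 1 and replicate 2. Precision is limited by the number of arrays, and p-values measure the spread between these arrays only. Sox10 signals were 163 and 335 with the wild type siRNA and 2873 and 2890.1 with the mutant siRNA, so that both pairs carried the difference named in their labels. Schwann cell identity was checked with 7 tested markers, among them Ngfr, S100b and Gfap: all had signals of 380.3 or more with the mutant siRNA, and all 7 were lower with the wild type siRNA (median log2 fold change -2.77). Among them are Sox10, the target itself, and Ngfr, Erbb3, S100b and Gfap, which the study picked on these arrays for their fall, so that direction is not independent. The signals of Mbp, a late myelin marker, lay at 113 or below on all 4 arrays. Signals are MAS5 values on a linear scale, with array medians of 101 to 110, and a signal near its array's 25th percentile (26.2 to 31.0) is little above background.

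DNA is copied once per division. In G1 the origin recognition complex, with Cdc6 and Cdt1, loads the Mcm helicase onto origins. Cdc45 and the GINS complex switch the helicase on in S phase, after which polymerases, the sliding clamp Pcna and its loader extend both strands. Most of these genes are transcribed periodically: E2F factors, held back by the retinoblastoma protein family in G1, drive them at the border of S phase. In a culture, such messengers are abundant in cycling cells and scarce in resting ones. RNA of whole cultures cannot tell fewer cells in S phase from less of each messenger per cell.

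To show what the members share beyond their function, RefSeq promoters on assembly GRCr8, from 250 bases before to 50 bases after the gene start, were searched on both strands for the E2F element in the spellings TTTCCCGC, TTTGGCGC, TTTCGCGC and TTTGCCGC. The table held a promoter for 47 of the 54 listed genes. An element stood in 21 of these 47 (44.7%), against 2.14% of all 33469 promoters and 4.63% of those of 7783 genes with a tested probe set. Spellings on opposite strands can overlap, as they do in Mcm2, Mcm5, Mcm6 and Gins1. The 12 windows of 30 bases below, each 5′ to 3′ on the strand of the gene with the element in capitals, are printed for helicase, polymerase and loader genes, for Cdca7 and Msh6 among the chromatin and repair genes, and for Tyms, which was not called.
Mcm2, minus strand, chr4:122918090-122918119: cgtgacccggtTTTCGCGCgaaaacccgtg
Mcm3, minus strand, chr9:30733734-30733763: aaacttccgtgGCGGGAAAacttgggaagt
Mcm5, plus strand, chr19:13488794-13488823: ccaggttggttTTTCCCGCgaaagtcggct
Mcm6, minus strand, chr13:42404473-42404502: tggcgtctgctTTTGGCGCgaaattagcgt
Mcm7, minus strand, chr12:22163212-22163241: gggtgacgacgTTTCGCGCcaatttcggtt
Cdt1, plus strand, chr19:67529245-67529274: ccgcgaaaattGCGCGAAAtccgcgggaag
Pola1, minus strand, chrX:62342509-62342538: gtcatcacaggGCGCCAAAtgcagtcccgc
Pole, minus strand, chr12:52053646-52053675: cacatgagagcGCGCCAAAttttcccggga
Rfc3, plus strand, chr12:5836554-5836583: acgtcgcagccTTTCGCGCtcgcgggaaaa
Cdca7, plus strand, chr3:77730247-77730276: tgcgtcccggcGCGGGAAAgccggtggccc
Msh6, minus strand, chr6:12333492-12333521: ctcctcccggcTTTCCCGCcagcagtggcc
Tyms, minus strand, chr9:120776102-120776131: aaggtgcgggtTTTGGCGCcgactacactg

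The element began 8 bases before the gene start in Mcm5, 5 in Msh6, 2 in Pole and 57 in Cdca7, and 7 bases after it in Cdt1. Over all members, 23 elements lay before the start, 15 of them within 100 bases of it, at a median of 37 bases. Overlapping spellings on opposite strands are counted separately here, so distinct sites are fewer. Besides the genes printed above, elements stood in the promoters of Gmnn, Gins1, Gins3, Pole2, Lig1, Rpa2, Uhrf1, Slbp and Hells. Of the members lower with the wild type siRNA (below), 19 of 39 with a promoter held the element, as did 2 of 7 members not called, Gins3 and Tyms. A match of letters is a description and was not read as a bound site. The CCAAT box, bound by NF-Y, stood in 29 of 47 member promoters (61.7%, against 37.5% of all promoters). The cell cycle genes homology region, TTTGAA or TTCGAA, stood in 11 (23.4%, against 19.7%). Among genes with a tested probe set these shares were 39.8% and 14.1%. The core of Sox elements, ACAAT, stood in 10 member promoters (21.3%), against 33.7% of all promoters and 20.2% of those of genes with a tested probe set.

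**Figure D1:**
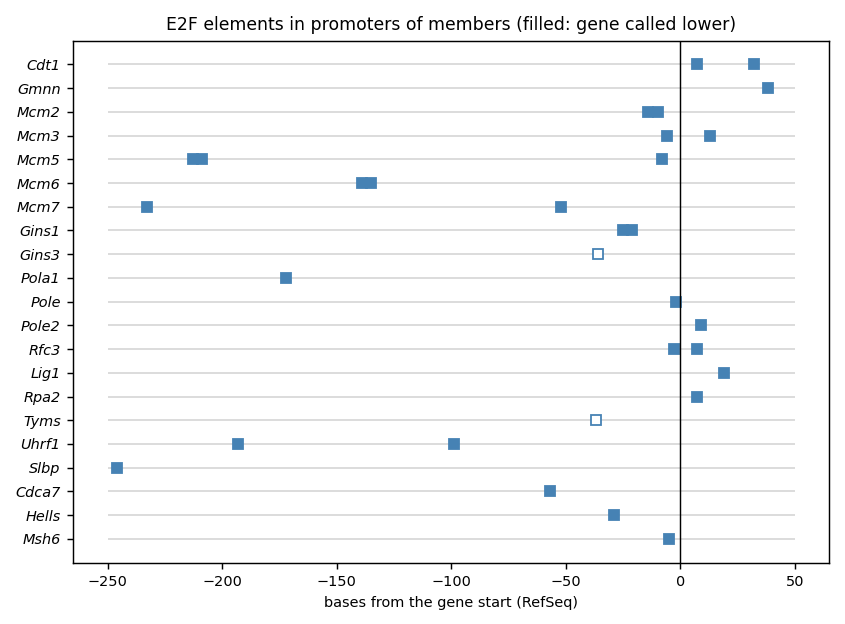
Positions of E2F elements in the promoters of 21 members, on an axis of bases from the RefSeq gene start, with the searched window drawn as a grey line; filled squares are genes lower with the wild type siRNA and open squares are Gins3 and Tyms, which were not called. Most elements lie close to the start, 15 of the 23 upstream ones (overlapping spellings counted separately) within 100 bases of it.

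With the wild type siRNA, 43 of the 51 measured members were lower (84.3%) by limma with a Benjamini-Hochberg adjusted p under 0.05, where 12.1% of all 16125 tested probe sets were lower. None of the 51 was higher, where 14.6% of all tested probe sets were. At an unadjusted limma p under 0.05 the counts were 47 lower and 0 higher. The share over all tested probe sets was not counted at that threshold. The median log2 fold change of the members, wild type minus mutant siRNA, was -1.30, and their values ran from -3.73 for Cdca7 to 0.27 for Rfc1. Over all tested probe sets the median was 0.13, and 0.05 or 0.08 with the signals as deposited or quantile normalized, so a change is to be read relative to that shift. Both wild type siRNA signals lay below both mutant siRNA signals in 49 members (31.9% of all tested probe sets), the exceptions being Rfc1 and Tyms. A change of at least 2-fold and past the test was found in 37 members (9.38% of all tested probe sets). One of at least 4-fold was found in 5: Mcm5, Cdt1, Cdca7, E2f8 and Exo1, with no share counted over all tested probe sets. Of the 51, 46 had signals at or above the array median on all 4 arrays, while Orc1, Mcm10, Cdca7, E2f8 and Brca1 fell below it on at least 1 wild type siRNA array and on no mutant siRNA array. Cdca7 fell below it on both, and so passed the filter only through the group in which it is high.

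The number of calls depended on single arrays and on the variance model. It was 14 without mutant siRNA replicate 1, 22 without mutant siRNA replicate 2, 29 without wild type siRNA replicate 1 and 47 without wild type siRNA replicate 2, and 22 when the prior variance did not follow signal intensity. The methods' t-test gave 11 lower and 0 higher members unadjusted (share over all tested probe sets not counted). With adjustment, a step the study did not apply, no member passed, and of all 16125 tested probe sets 0 were lower and 2 higher. With the replicate number as a block, 2580 of all tested probe sets were lower and 3308 higher, against 1956 and 2348 in the main fit. Calls gained under the block were thus not particular to the members. Without the intensity trend 1187 of all tested probe sets were lower, against 1956 in the main fit. Lower calls over all tested probe sets also fell without wild type siRNA replicate 1 or either mutant siRNA array. They rose without wild type siRNA replicate 2. In total 13 members were lower in each of the 4 fits without 1 array: Cdt1, Mcm2, Mcm3, Mcm5, Mcm6, Mcm7, Pola1, Pold1, Pole, Prim1, Tk1, Dut and Cdca7. The other 30 lost the call in at least 1 of these fits, with adjusted p between 0.0501 and 0.248 there. Mutant siRNA replicate 1 had the highest ratio of 3' to 5' actin signal (1.87, against 1.39 to 1.54), and its part in the results was not tested.

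**Figure D2:**
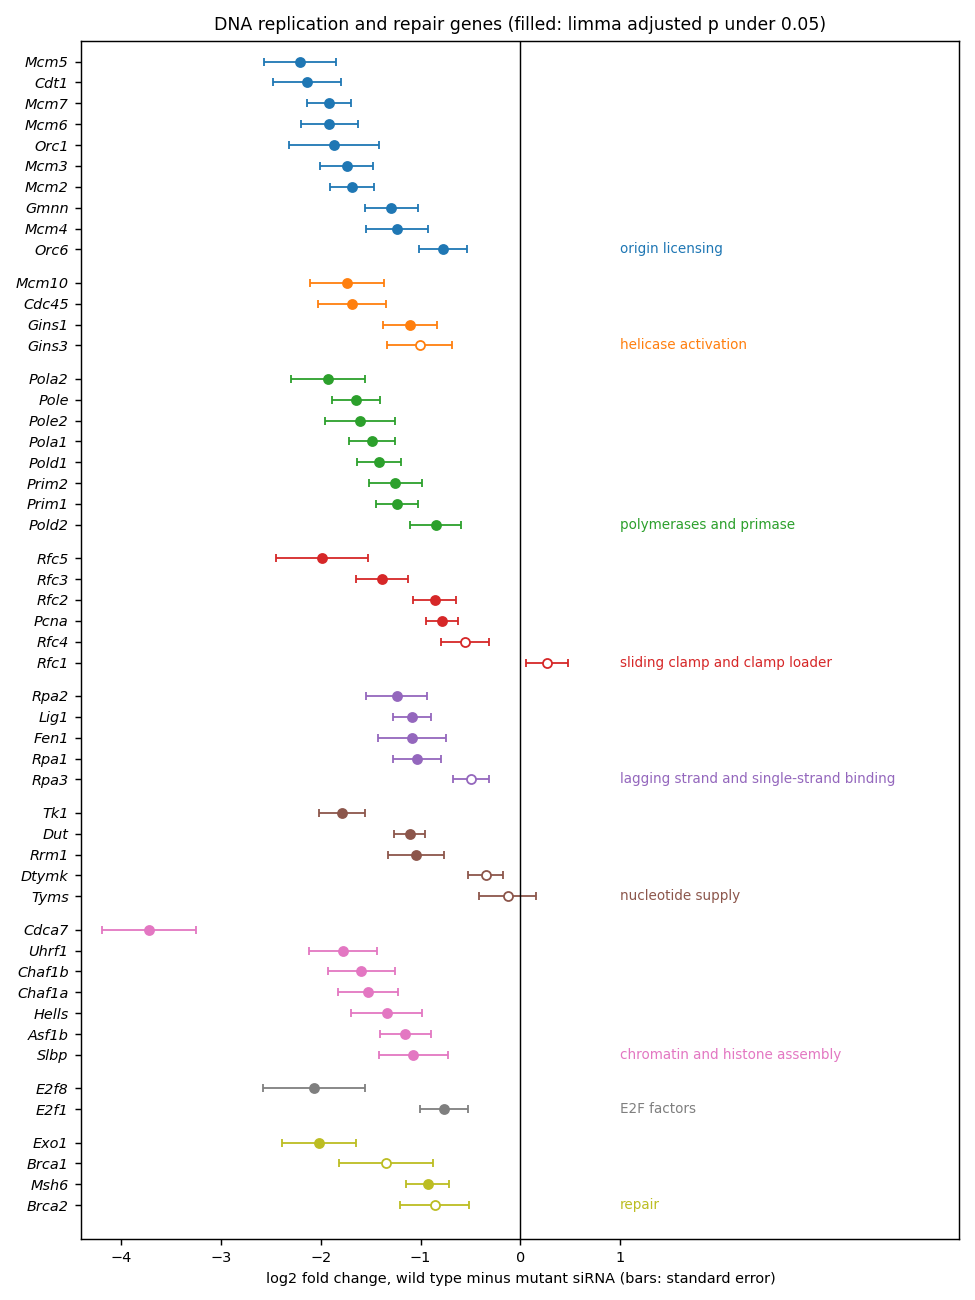
Log2 fold change (wild type minus mutant siRNA, 2 arrays each) of the 51 measured members, grouped by role in one colour each, with bars of 1 standard error (SE); filled points passed limma at an adjusted p under 0.05. All points but that of Rfc1 lie left of 0, and 43 are filled.

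The listed origin licensing genes fell as a group: 10 of 10 measured members were lower, with a median log2 fold change of -1.80. None of the tested subunits of the origin recognition complex outside the list was called lower (below). The Mcm2 to Mcm7 subunits form the ring that unwinds DNA. Mcm5 had signals of 376 and 834.5 with the wild type siRNA and 3090 and 2418 with the mutant siRNA, which is a log2 fold change of -2.21 (standard error, SE, 0.36, adjusted p = 0.00517 by limma). The signals of the groups were far apart, and the lower of the wild type siRNA signals was that of replicate 1, as in all 10 genes. Mcm7 had 1271.5 and 1838 against 6532 and 5704, or -1.92 as log2 fold change (SE 0.22, adjusted p = 0.00205). Cdt1, which loads the ring, had 282 and 532 against 2190.4 and 1475 (log2 fold change -2.14, SE 0.34, adjusted p = 0.00484). Each of these 3 kept its call without any 1 array. Mcm6 fell by 1.91, Mcm3 by 1.74 and Mcm2 by 1.69 on the log2 scale, and they also kept the call without any 1 array. The rest were lower with less certainty. Mcm4, the remaining ring subunit, was at -1.24 (adjusted p = 0.0236) and lost its call without wild type siRNA replicate 1 (adjusted p = 0.0506) or either mutant siRNA array (0.109 and 0.0696). Gmnn codes for geminin, the inhibitor of Cdt1 that stops a second round of licensing, and fell with its target, at -1.30 (adjusted p = 0.0112, and 0.0684 without mutant siRNA replicate 1). Orc1, the subunit of the origin recognition complex that is regulated through the cycle, had signals of 79.3 and 199.8 against 582 and 405, a change of -1.87 (adjusted p = 0.0203, and 0.120 or 0.0535 without mutant siRNA replicate 1 or 2). Orc6 was at -0.78 (adjusted p = 0.0458, and 0.154 to 0.197 without wild type siRNA replicate 1 or either mutant siRNA array), and its other probe sets, at -1.002 and -0.82, were not called (adjusted p = 0.0812 and 0.0549).

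Of the genes that activate the helicase, 3 of 4 measured members were lower, with a median log2 fold change of -1.40. Mcm10, which is not part of the Mcm2 to Mcm7 ring despite its name, had 103 and 212.5 with the wild type siRNA against 502 and 542 with the mutant siRNA (log2 fold change -1.74, SE 0.37, adjusted p = 0.0128 by limma). A second probe set of Mcm10 was at -1.72 (adjusted p = 0.0106). Cdc45, the partner of the active helicase, had 374 and 804 against 1857 and 1869 (log2 fold change -1.69, SE 0.34, adjusted p = 0.0105), and its other tested probe sets were lower as well, at -2.38 and -1.26 (adjusted p = 0.00873 and 0.0364). Gins1, a GINS subunit, had 352 and 536 against 1056 and 924 (log2 fold change -1.11, SE 0.27, adjusted p = 0.0196). The mutant siRNA signals of Mcm10 and Cdc45 were nearly equal, whereas wild type siRNA replicate 1 lay well below replicate 2. Gins3, another GINS subunit, was at -1.01 and did not pass (adjusted p = 0.0532), but did with the replicate number as a block (0.0257), with uncentred signals (0.0363) and with quantile normalized ones (0.0426). All 3 calls were lost without mutant siRNA replicate 1, that of Mcm10 also without mutant siRNA replicate 2 and that of Gins1 without wild type siRNA replicate 1 or mutant siRNA replicate 2 (adjusted p between 0.0532 and 0.106).

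All 8 listed polymerase and primase genes were lower, with a median log2 fold change of -1.45. Pold3 and Pold4, outside the list, went in opposite directions (below). Polymerase alpha and primase lay down the primers, polymerase epsilon extends the leading strand and polymerase delta the lagging strand. Pola2, the second subunit of polymerase alpha, had 127 and 267 with the wild type siRNA against 823 and 669.6 with the mutant siRNA (log2 fold change -1.93, SE 0.37, adjusted p = 0.00869 by limma). Pole, the catalytic subunit of polymerase epsilon, had 205 and 228 against 759 and 672 (log2 fold change -1.65, SE 0.24, adjusted p = 0.00359). Unlike in Pola2, the wild type siRNA signals of Pole were close to each other. Pole2, its second subunit, had 214 and 449 against 926 and 1075 (log2 fold change -1.61, SE 0.35, adjusted p = 0.0134). Pola1 and Pold1, the catalytic subunits of polymerases alpha and delta, were at -1.48 and -1.41 (adjusted p = 0.00430 and 0.00449), with wild type siRNA signals of 327 and 356 for Pola1 and of 444.5 and 429 for Pold1. The primase subunits Prim2 and Prim1 were at -1.26 and -1.24 (adjusted p = 0.0121 and 0.00613), and the delta subunit Pold2 at -0.85 (adjusted p = 0.0417). Calls of 4 genes were lost without 1 array: Pola2 without mutant siRNA replicate 1, Pole2 and Prim2 without either mutant siRNA array, and Pold2 also without wild type siRNA replicate 1 (adjusted p between 0.0501 and 0.235).

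The sliding clamp and its loader changed less evenly, with 4 of 6 members lower and a median log2 fold change of -0.82. Pcna, the clamp that tethers polymerases to DNA, had 7288 and 8962 with the wild type siRNA against 15220 and 14198 with the mutant siRNA, a log2 fold change of -0.78 (adjusted p = 0.0117 by limma, and 0.0586 or 0.0713 without wild type or mutant siRNA replicate 1). Changes of replication factor C, the loader, differed in size by subunit. Rfc5 had 359.5 and 1139 against 2422 and 2962 (log2 fold change -1.99, SE 0.46, adjusted p = 0.0171), and its second probe set was at -1.88 (adjusted p = 0.00530). Rfc3 had 555 and 867 against 2059 and 1779 (log2 fold change -1.39, SE 0.26, adjusted p = 0.00834). Rfc2 had 1215 and 1668 against 2862 and 2598 (log2 fold change -0.86, SE 0.22, adjusted p = 0.0233). The gap between groups was thus widest in Rfc5, whose wild type siRNA signals were also the most uneven. Rfc4 had 1372 and 2120.5 against 2459 and 2848, at -0.55, and did not pass (adjusted p = 0.121, and 0.0317 with the replicate block). Rfc1, the large subunit, had 1424 and 1520.5 against 1457 and 1145, at 0.27 (adjusted p = 0.366). Its groups overlapped, and its other probe sets, at 0.24 and 0.37, were not called either. The calls of Rfc2, Rfc3 and Rfc5 were each lost without mutant siRNA replicate 1, those of Rfc2 and Rfc5 also without mutant siRNA replicate 2, and that of Rfc2 without wild type siRNA replicate 1 (adjusted p between 0.0549 and 0.120).

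Lagging strand and single-strand binding genes were lower in 4 of 5 cases, with a median log2 fold change of -1.08. Rpa2, a subunit of the protein that coats single-stranded DNA, had 572 and 1086 with the wild type siRNA against 2116 and 1828 with the mutant siRNA (log2 fold change -1.24, SE 0.31, adjusted p = 0.0218 by limma). Lig1, the ligase that joins Okazaki fragments, had 842 and 912 against 2039 and 1892 (log2 fold change -1.09, SE 0.19, adjusted p = 0.00686). Its other probe set was at -1.27 (adjusted p = 0.00662). The 4 signals of Lig1 formed close pairs, whereas those of Rpa2 and Fen1 did not. Fen1, which trims the flaps between fragments, had 520 and 1100.1 against 1863 and 1541 (log2 fold change -1.08, SE 0.34, adjusted p = 0.0482). Rpa1, the large subunit of the coat, was at -1.03 (adjusted p = 0.0174). Rpa3, the small subunit, was at -0.49 with groups that did not overlap and did not pass (adjusted p = 0.0770), but did with the replicate block (0.0117), with uncentred signals (0.0460) and with quantile normalized ones (0.0312). Each of the 4 calls was lost without mutant siRNA replicate 1, those of Rpa1, Rpa2 and Fen1 also without wild type siRNA replicate 1, and those of Rpa2 and Fen1 without mutant siRNA replicate 2 (adjusted p between 0.0505 and 0.194).

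Enzymes that supply nucleotides split, with 3 of 5 measured members lower and a median log2 fold change of -1.04. Tk1, the thymidine kinase of cycling cells, had 479 and 626 with the wild type siRNA against 1805 and 2204 with the mutant siRNA (log2 fold change -1.79, SE 0.23, adjusted p = 0.00253 by limma), and its other probe sets were lower too, at -1.93 and -1.24 (adjusted p = 0.00466 and 0.0198). Dut, which removes dUTP and makes the precursor of dTMP, had 3557 and 3789 against 8535 and 8202 (log2 fold change -1.11, SE 0.16, adjusted p = 0.00320), and a dimmer probe set was at -1.82 (adjusted p = 0.0139). These genes kept their calls without any 1 array. Rrm1, the large subunit of ribonucleotide reductase, had 1813 and 3335 against 5670.1 and 5052 (log2 fold change -1.04, SE 0.28, adjusted p = 0.0286), and lost its call without wild type siRNA replicate 1 or either mutant siRNA array (adjusted p between 0.0792 and 0.127). Tyms, thymidylate synthase, had 299 and 451 against 380.4 and 472.5, with overlapping groups and a log2 fold change of -0.13 (adjusted p = 0.767). Dtymk, which phosphorylates dTMP, was at -0.35 and did not pass (adjusted p = 0.166), while its second probe set, at -0.67, did (adjusted p = 0.0424). Of the genes on the way to dTTP, Tk1 and Dut were thus lower, Dtymk was lower by 1 of its 2 probe sets, and Tyms was not called.

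All 7 listed genes of chromatin and histone assembly were lower, with a median log2 fold change of -1.53. Cdca7, a partner of the remodeller Hells that is switched on in dividing cells, had the lowest value of the members: 25.6 and 33.7 with the wild type siRNA against 456 and 369.8 with the mutant siRNA (log2 fold change -3.73, SE 0.47, adjusted p = 0.00252 by limma). The study picked Cdca7 on these same arrays for its fall, and it passed the filter on dim probe sets only through its mutant siRNA signals, so its direction, call and rank are not independent evidence here. Its wild type siRNA signals lay near the 25th percentile of their arrays, and the size of its change is not fixed. It was -3.66 with signals raised to that percentile and -2.87 with the percentile added to every signal. Uhrf1, which brings the maintenance methyltransferase to copied DNA, had 143 and 272 against 647 and 791 (log2 fold change -1.78, SE 0.34, adjusted p = 0.00861). Chaf1b had 142 and 268 against 652 and 595 (log2 fold change -1.59, SE 0.34, adjusted p = 0.0122). Chaf1b and Chaf1a, at -1.53 (adjusted p = 0.00956), belong to chromatin assembly factor 1, which places new histones behind the fork. Hells was at -1.34 (adjusted p = 0.0279), the histone chaperone Asf1b at -1.15 (adjusted p = 0.0138), and Slbp, which binds histone messengers, at -1.07 (adjusted p = 0.0492). Apart from Cdca7 each lost its call without 1 array: Uhrf1 without mutant siRNA replicate 2, Chaf1a without mutant siRNA replicate 1, Chaf1b and Asf1b without either, and Hells and Slbp also without wild type siRNA replicate 1 (adjusted p between 0.0532 and 0.248).

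Both E2F genes among the members were lower, while E2F genes outside the list divided. By limma E2f2 and E2f7 were lower, at -1.48 and -1.72 (adjusted p = 0.0338 and 0.0367), and E2f5 was higher, at 0.69 (adjusted p = 0.0344). E2f4 and E2f6, at -0.46 and -0.57, were not called. E2f8, a repressor that is itself induced by E2F and shuts its genes off late in S phase, had 57.9 and 183 with the wild type siRNA against 465 and 447 with the mutant siRNA (log2 fold change -2.07, SE 0.51, adjusted p = 0.0211 by limma). E2f1, an activator of the group, had 354 and 467 against 739.7 and 720.2 (log2 fold change -0.76, SE 0.24, adjusted p = 0.0473). In both genes the mutant siRNA signals were close to each other and the wild type siRNA signals were not. E2f8 lost its call without either mutant siRNA array and E2f1 also without wild type siRNA replicate 1 (adjusted p between 0.0852 and 0.186).

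Of the 4 listed repair genes, 2 were lower. Exo1, an exonuclease of mismatch repair and of end resection, had 141 and 302 with the wild type siRNA against 979.8 and 794.5 with the mutant siRNA (log2 fold change -2.02, SE 0.37, adjusted p = 0.00759 by limma). Msh6, which recognises mismatches, had 698 and 879 against 1678 and 1480 (log2 fold change -0.93, SE 0.22, adjusted p = 0.0178). Exo1 lost its call without mutant siRNA replicate 1 (adjusted p = 0.0508), and Msh6 without that array, mutant siRNA replicate 2 or wild type siRNA replicate 1 (adjusted p between 0.0576 and 0.105). The homologous recombination genes Brca1 and Brca2 did not pass. Brca1 had 56.6 and 116 against 223 and 212, at -1.35 (adjusted p = 0.0672, and 0.0389 with the replicate block). Brca2 had 185 and 111 against 268 and 280.2, at -0.86 (adjusted p = 0.0992). Groups did not overlap in either gene, and in Brca2 the lower wild type siRNA signal was that of replicate 2.

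**Figure D3:**
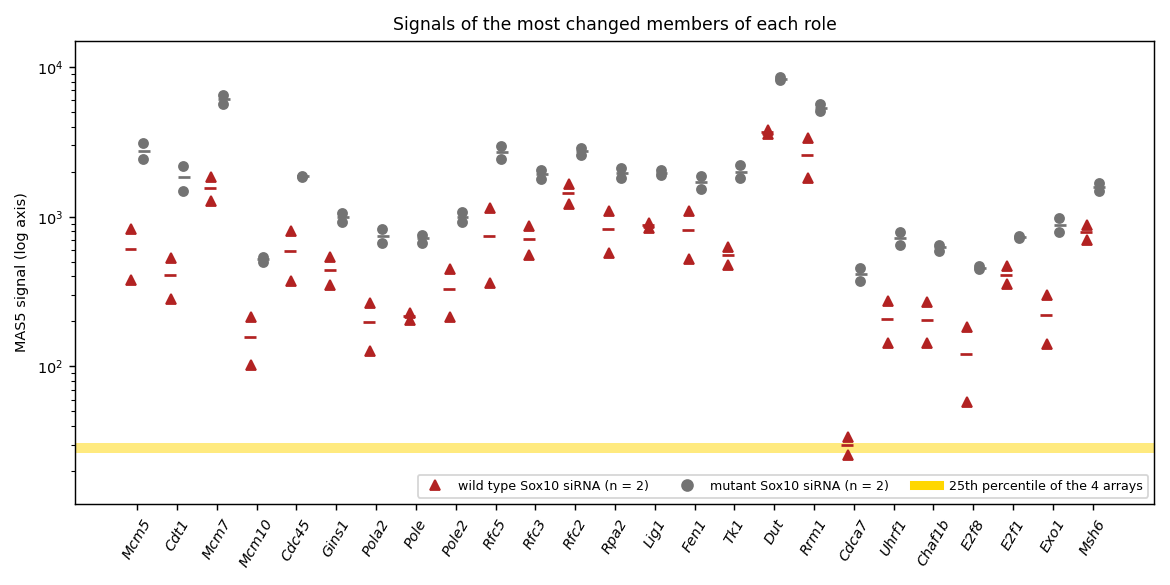
MAS5 signals on a log axis of the 3 called members with the largest change in each role (25 genes, since E2F factors and repair have 2 each), with triangles for the 2 wild type siRNA arrays, circles for the 2 mutant siRNA arrays, dashes for group means and a gold band for the 25th percentiles of the 4 arrays. The groups overlap in none of the 25 genes, which was largely set by choosing called genes with large changes. Only Cdca7 comes near the band, with wild type siRNA signals of 25.6 and 33.7 on either side of it.

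The size of the change differed between the pairs. In pair 1 the median log2 fold change of the members was -1.81, and in pair 2 it was -0.91, while the medians over all tested probe sets were 0.10 and 0.15. Pair 1 had the lower value in 49 of 51 members, the exceptions being Dtymk and Brca2, against 58.8% of all tested probe sets. The difference lay mainly in the wild type siRNA arrays. The signal as deposited, before centring, was lower on replicate 1 than on replicate 2 in 48 of 51 members (48.9% of all tested probe sets). Among the mutant siRNA arrays replicate 1 was the higher one in 36 of 51 (50.5% of all), also before centring. Sox10 itself was lower on wild type siRNA replicate 1 (163) than on replicate 2 (335). With 2 pairs no relation between the signals of Sox10 and of the members can be tested. Both pairs showed a fall of at least 2-fold in 21 of 51 members and in 7.45% of all tested probe sets. Tk1 was the most even of the strongly changed genes, with -1.88 and -1.69 in the pairs, whereas Mcm5 had -3.01 and -1.41, Orc1 -2.84 and -0.89, and Fen1 -1.81 and -0.36.

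**Figure D4:**
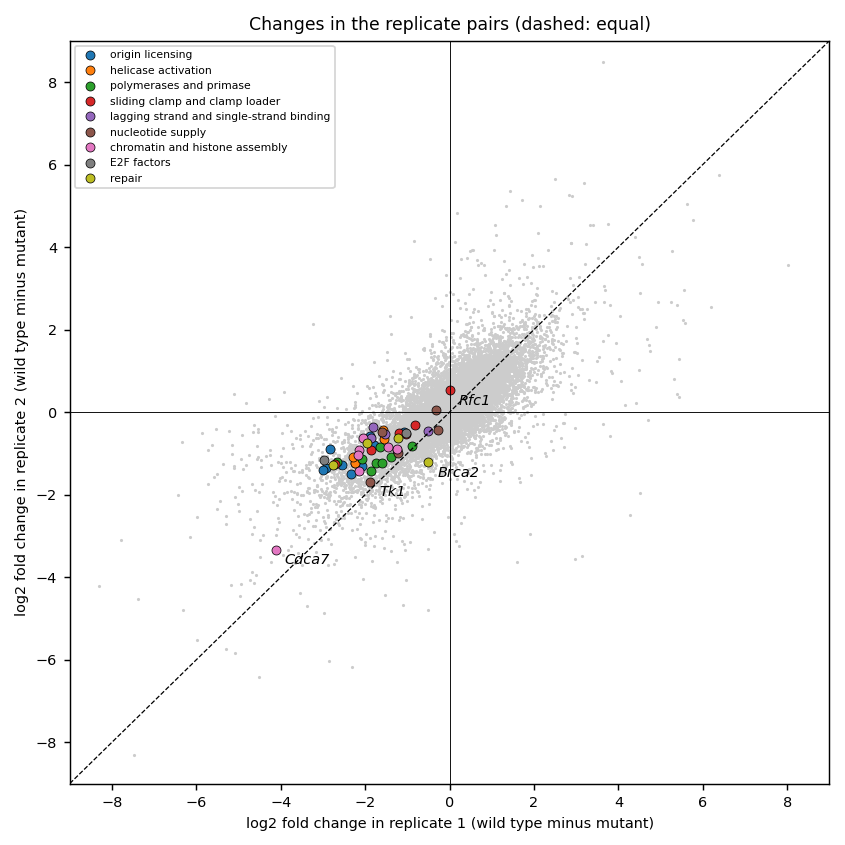
Log2 fold change (wild type minus mutant siRNA, centred signals) in replicate pair 1 on the x axis against pair 2 on the y axis, with 51 members coloured by role, all 16125 tested probe sets in grey and equal change as a dashed line. Nearly all members (49 of 51) lie above the dashed line, since their value was lower in pair 1 than in pair 2. Among them Rfc1 fell in neither pair and Tyms fell in pair 1 only.

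Replication factors outside the list behaved less uniformly. Of 30 tested factors, 11 were lower and 2 higher (12.1% and 14.6% of all tested probe sets), with a median log2 fold change of -0.82. The lower ones numbered 8, 4 and 6 without wild type siRNA replicate 1, mutant siRNA replicate 1 and mutant siRNA replicate 2, the higher ones 2, 1 and 2, and with the replicate block 14 were lower and 4 higher. The lower ones included Dscc1, a subunit of a second clamp loader, at -1.92 (adjusted p = 0.00359 by limma), Top2a, the topoisomerase of dividing cells, at -1.80 (adjusted p = 0.0144, and 0.0556 or 0.0688 without mutant siRNA replicate 1 or 2), and Pold3, a delta subunit, at -1.51 (adjusted p = 0.00546). Pold4, the small delta subunit, went the other way, with signals of 947 and 932.5 against 461 and 274 (log2 fold change 1.48, adjusted p = 0.00891). The 4 delta subunits thus divided into Pold1, Pold2 and Pold3, which were lower, and Pold4, which was higher. The origin recognition complex divided as well: the listed Orc1 and Orc6 were lower, Orc4 was higher at 1.15 (adjusted p = 0.0160, and 0.0937 without mutant siRNA replicate 1), and Orc2, Orc3 and Orc5 were at -0.13, 0.65 and -0.24 and not called (Orc3 with adjusted p = 0.0412 under the replicate block). Of 11 other nucleotide enzymes 2 were lower, not far from the share over all tested probe sets (12.1%), and 1, 1 and 0 in the same 3 fits without 1 array. They were Cad, of pyrimidine synthesis, at -0.93 (adjusted p = 0.0155, and 0.109 without mutant siRNA replicate 2) and Dctpp1 at -0.61 (adjusted p = 0.0430, and 0.136 to 0.171 without wild type siRNA replicate 1 or either mutant siRNA array).

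Repair pathways outside the list differed in their counts. Of 20 tested genes of homologous recombination and crosslink repair, 8 were lower and 1 was higher (median -0.54), but 6, 1 and 2 were lower without wild type siRNA replicate 1, mutant siRNA replicate 1 and mutant siRNA replicate 2. Rad54l, a motor protein of strand exchange, had 127 and 232 against 613 and 624 (log2 fold change -1.77, adjusted p = 0.00825 by limma) and kept its call. Of 20 genes of base and nucleotide excision repair, 1 was lower and 3 were higher, with a median of -0.02, where 12.1% and 14.6% of all tested probe sets were lower and higher. Polb, the repair polymerase of base excision, was among the higher ones, with 2028 and 1965 against 930.3 and 1026.5 (log2 fold change 1.11, adjusted p = 0.00550). Ercc5, an endonuclease of nucleotide excision, was at 1.58 (adjusted p = 0.0257), a call lost without wild type siRNA replicate 1 (0.150) or mutant siRNA replicate 2 (0.106). None of 6 end joining genes was called by limma, and none had an unadjusted p under 0.05 (median 0.17). None of 3 other mismatch repair genes, Msh3, Pms1 and Pms2, was called either (median -0.02, with 1 higher at an unadjusted p under 0.05). In the replication checkpoint, Chek1, the kinase that stabilises stalled forks, was at -1.61 (adjusted p = 0.00340), and of 12 tested genes 3 were lower and 2 higher. Lower genes numbered 2, 1 and 2 and higher genes 1, 1 and 0 without wild type siRNA replicate 1, mutant siRNA replicate 1 and mutant siRNA replicate 2.

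Genes of the later cell cycle moved with the members. Of 28 tested mitosis and cytokinesis genes 21 were lower and 0 higher, with a median log2 fold change of -1.26 and medians of -1.63 and -0.95 in the pairs, and the count was 14, 11 and 2 without wild type siRNA replicate 1, mutant siRNA replicate 1 and mutant siRNA replicate 2, and 26 with the replicate block. Bub1b, a spindle checkpoint kinase, was at -2.08 (adjusted p = 0.00853 by limma). The summed signals of this list were 20440 and 39905 with the wild type siRNA and 64373 and 86990 with the mutant siRNA, so that here too wild type siRNA replicate 1 was the lowest. Mutant siRNA replicate 1 was the higher mutant array in 3 of the 28 mitosis genes, against 36 of the 51 members. Their promoters differed as well: an E2F element stood in 1 of 27 mitosis promoters and in 21 of 47 member promoters, and the cell cycle genes homology region in 20 of 27 and in 11 of 47. Of 20 tested genes of G1 to S control, 7 were lower and 3 higher, the latter about the share over all tested probe sets (14.6%). The lower ones numbered 2, 1 and 1 in these fits without 1 array, and the higher ones 1 in each. Among them Ccnd1, cyclin D1, was at -1.08 (adjusted p = 0.00429), Ccnd3, cyclin D3, at 1.11 (adjusted p = 0.00689), and Rbl1, the retinoblastoma relative p107, at -1.83 (adjusted p = 0.0207, and 0.0788 or 0.0820 without mutant siRNA replicate 1 or 2).

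Markers of another cell type also moved between the groups. Of 10 smooth muscle markers 4 were bright enough to test, and 2 of them were higher with the wild type siRNA, Acta2 at 2.37 (adjusted p = 0.0181 by limma, and 0.0808 without mutant siRNA replicate 1) and Tagln at 1.72 (adjusted p = 0.00247). The paper recounts earlier profiling of RT4D6 cells with a Sox10 siRNA, in which smooth muscle genes rose, α-smooth muscle actin (Acta2) among them. The direction of Acta2 is therefore not independent evidence here. The summed signals of the 10 smooth muscle markers were 24028 and 28761 with the wild type siRNA and 6718 and 11440 with the mutant siRNA, most of it from Tagln. Myh11 and Smtn were at 1.37 and -0.84 and not called (Smtn with adjusted p = 0.0127 under the replicate block), and Cnn1, Myocd, Des, Lmod1, Actg2 and Tpm2 stayed below the filter. No marker was listed at 0. The part of these shifts in the lower signals of the replication genes was not tested.

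**Figure D5:**
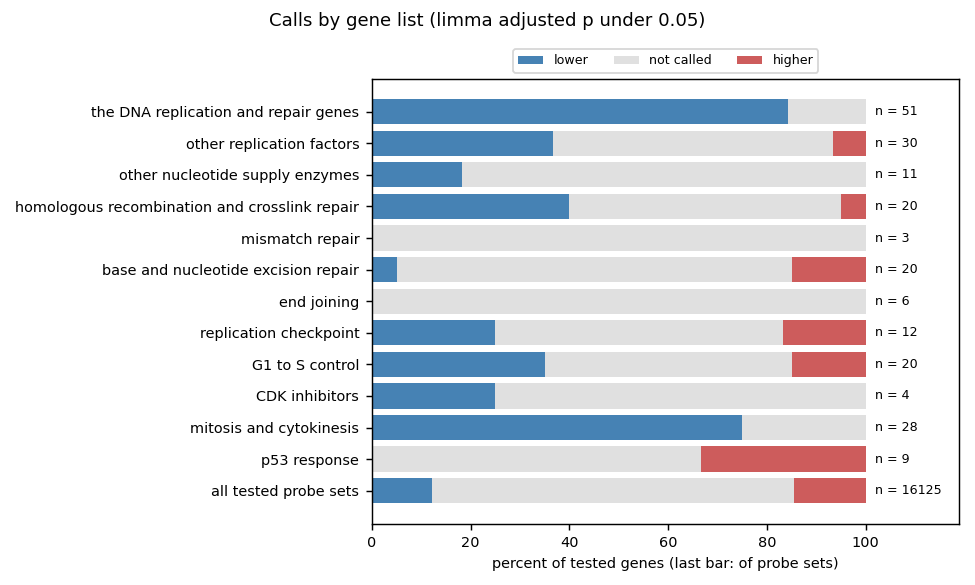
Percent of tested genes lower (blue), not called (grey) and higher (red) with the wild type siRNA in the members and 11 other lists of replication, repair and cell cycle genes, by limma at an adjusted p under 0.05, with the number tested at the right and all 16125 tested probe sets in the last bar. The members (43 of 51 lower) and the mitosis list (21 of 28) have the longest blue bars of those drawn and no red one.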

How the data were processed

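RNA of RT4D6 cells was measured on 4 arrays. The authors deposited linear intensity values, the MAS5 signals of the probe sets (MAS5 is named in the submitters' processing notes, with no version), and the 2% trimmed mean of every array was 500.2. Of 31099 probe sets, 57 controls were left out, and of the other 31042 the platform annotation gives a single symbol to 20826, several to 436 and none to 9780. Log2 signals were centred on the array median, as the methods state for the median normalization, and the 16125 probe sets at or above it on 2 or more of the 4 arrays entered a fit by limma 3.58.1 under R 4.3.3 (functions lmFit and eBayes, prior variance following intensity), with Benjamini-Hochberg adjustment over all of them and a call at an adjusted p under 0.05. The scripts were tested on simulated data. The members, gene lists and tests were chosen with earlier results of these data known. Full values are given for the 3 called members of each role with the largest change; a few genes of other lists were named after their values were seen. The submitters' design text and the paper describe pairs of cell samples. Arrays that share a number deviated together only weakly from the group means (r = 0.14 over the tested probe sets). In the members, wild type siRNA replicate 1 was mostly the lower array and mutant siRNA replicate 1 mostly the higher (48 and 36 of 51). The replicate block is an alternative, as are other scalings, floors, filters and variance models. So are the methods' t-test, other probe sets and each array left out in turn. The paper does not give the form of its t-test, which was taken here as unpaired, with equal variances, on log2 signals. It was run here on all tested probe sets, whereas the paper applied it after filters on detection and on a 2-fold fall. Detection calls, and the fold changes in the paper's supplement, were not used here. Promoters came from RefSeq (GRCr8); no genome sequence was used. Python 3.11.15 with pandas 2.3.3 gave the tables, and matplotlib 3.10.9 the plots.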

Additional observations from a re-analysis of the deposited data

How the results depend on the processing

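The count of 43 lower members was 45 with the signals as deposited or quantile normalized, 43 with either treatment of low signals or the filter on the mutant siRNA arrays, 39 with no filter, 40 of 46 with the filter on all 4 arrays, 41 with robust variances and 41 of 49 with second probe sets. It moved to 22 without the intensity trend and to 0 with the methods' t-test (11 unadjusted), and it ranged from 14 (without mutant siRNA replicate 1) to 47 (without wild type siRNA replicate 2); it was 29 without wild type siRNA replicate 1 while leaving out mutant siRNA replicate 2 gave 22. The count of higher members was 0 in all of these. Over all 16125 tested probe sets 1956 were lower in the main fit and with robust variances, 2280 with the signals as deposited and 2150 quantile normalized. With no filter 1665 of 31042 were lower, and with the filter on all 4 arrays 1723 of 13401. Lower calls over all tested probe sets moved in the same direction as those of the members when 1 array was left out. Without Cdca7, an alternative chosen after seeing the data, 42 of 50 members were lower. The median log2 fold change ranged from -1.68 to -1.001 when 1 array was left out and from -1.37 to -1.22 under the other settings. With the replicate block 47 members were lower: Gins3, Rfc4, Rpa3 and Brca1 were added and it changed no other call of a member. The block also raised the calls over all 16125 tested probe sets, to 2580 lower and 3308 higher. Tyms, not called in any of these fits, ranged from -0.45 to 0.20 when 1 array was left out, the highest value being that without wild type siRNA replicate 1 (adjusted p = 0.690); leaving out mutant siRNA replicate 2 gave 0.0098 (adjusted p = 0.988).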

Other observations

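Cell cycle inhibitors and genes of the p53 response were counted from the same fit. Of all tested probe sets 12.1% were lower and 14.6% higher. Of 4 tested inhibitors of cyclin-dependent kinases 1 was lower, Cdkn2d (p19), at a log2 fold change of -0.81 (adjusted p = 0.0223 by limma), a call lost without wild type siRNA replicate 1 (0.0634), mutant siRNA replicate 1 (0.0706) or mutant siRNA replicate 2 (0.132). Cdkn1a (p21), the inhibitor induced by p53, was at 0.45 (adjusted p = 0.209) and Cdkn1b (p27) at 0.30 (adjusted p = 0.403), and neither passed. Of 9 tested genes of the p53 response 3 were higher and 0 lower, with a median log2 fold change of 0.36, and the higher ones numbered 4, 1 and 1 without wild type siRNA replicate 1, mutant siRNA replicate 1 and mutant siRNA replicate 2. Ccng1, cyclin G1, had signals of 8899 and 9844 with the wild type siRNA against 5164 and 4414 with the mutant siRNA (log2 fold change 1.05, standard error 0.17, adjusted p = 0.00466), and kept its call without any 1 array. Fas, a death receptor, at 1.20 (adjusted p = 0.0151), and Mdm2, the ligase that limits p53, at 0.76 (adjusted p = 0.0214), lost theirs without wild type siRNA replicate 2 or either mutant siRNA array (adjusted p between 0.0510 and 0.0971).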
